A study of Mus musculus with 6 samples.

Results

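The stimulatory G protein of the cAMP pathway and the enzymes that it activates were followed in RNA of cultured stellate cells from mouse liver, which sit along the sinusoids, store retinoids and become myofibroblasts on activation. The 10 genes were taken by symbol from a deposited table of 24940 genes, with no rule on their values but with earlier results of these data known: Gnas, which encodes the alpha subunit of Gs, and Adcy1 to Adcy9, which encode the 9 membrane-bound adenylyl cyclases. Polyadenylated RNA came from primary wild-type cells of female C57BL/6JBomTac mice at day 2 of culture. The OCA+VIP group (3 libraries) received 10 µM obeticholic acid (OCA), a bile acid derivative that activates the nuclear receptor FXR, and the DMSO+VIP group (3 libraries) the vehicle DMSO at 1:1000. Both groups were then given VIP (vasoactive intestinal peptide) at 500 nM, a neuropeptide whose receptors couple to Gs, 3 h into the treatment and for 3 h more. All 6 libraries therefore saw VIP, and every comparison below is of OCA against vehicle in VIP-treated cells. No label says whether the 3 libraries of a group are separate mice or cultures, so p-values describe the spread between these libraries, which may be technical.

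Gs couples receptors such as the VIP receptors to adenylyl cyclase: the GTP-bound alpha subunit binds the cyclase, which turns ATP into cAMP, and cAMP acts through protein kinase A and EPAC. The membrane-bound cyclases all respond to Gs but differ in their other inputs. Adcy1, Adcy3 and Adcy8 encode the group linked to calcium and calmodulin, Adcy2, Adcy4 and Adcy7 the group that G protein beta-gamma dimers can stimulate further, Adcy5 and Adcy6 the group inhibited by calcium and by Gi, and Adcy9 a cyclase that is nearly insensitive to the plant compound forskolin. In many cell types cAMP opposes contraction and fibrogenic activation, and stellate cells are among those in which it has been studied.

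Of the 10 genes, 8 have a promoter window in RefSeq (GRCm38.p6) and Adcy6 and Adcy8 were not matched. The 250 bases upstream of the transcript start are shown for Gnas, by far the most abundant of the genes, for Adcy3, whose level passed the test, and for Adcy4 and Adcy5, whose libraries did not overlap between groups. They are written 5′ to 3′ in the direction of transcription. Capitals mark the core of the cAMP response element, TGACG on either strand, and the GC box, GGGCGG on either strand.
Gnas, chr2:174327518-174327767, plus strand: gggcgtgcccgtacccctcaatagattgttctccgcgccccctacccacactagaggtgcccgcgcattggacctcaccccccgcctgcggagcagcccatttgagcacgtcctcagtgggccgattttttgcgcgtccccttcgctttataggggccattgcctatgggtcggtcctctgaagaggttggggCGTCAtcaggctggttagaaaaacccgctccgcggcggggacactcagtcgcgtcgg
Adcy3, chr12:4133147-4133396, plus strand: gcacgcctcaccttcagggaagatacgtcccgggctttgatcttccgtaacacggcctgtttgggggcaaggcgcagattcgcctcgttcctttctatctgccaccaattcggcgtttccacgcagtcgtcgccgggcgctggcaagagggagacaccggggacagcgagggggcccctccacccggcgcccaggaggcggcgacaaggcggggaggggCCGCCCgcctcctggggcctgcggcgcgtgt
Adcy4, chr14:55784073-55784322, minus strand: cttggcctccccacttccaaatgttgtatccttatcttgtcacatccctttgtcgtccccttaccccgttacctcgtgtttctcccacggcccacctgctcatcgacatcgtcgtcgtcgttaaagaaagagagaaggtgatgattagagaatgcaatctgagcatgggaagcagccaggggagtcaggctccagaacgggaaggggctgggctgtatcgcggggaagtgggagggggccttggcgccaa
Adcy5, chr16:35154614-35154863, plus strand: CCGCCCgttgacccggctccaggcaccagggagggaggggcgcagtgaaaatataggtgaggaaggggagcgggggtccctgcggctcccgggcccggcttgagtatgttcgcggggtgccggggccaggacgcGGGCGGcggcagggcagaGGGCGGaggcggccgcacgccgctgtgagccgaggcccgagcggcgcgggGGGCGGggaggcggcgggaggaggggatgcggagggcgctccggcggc
The core TGACG lies once in the Gnas window shown, 57 bases before the start of the deposited transcript, and in none of the 3 cyclase windows shown. The same core is held by 17.8% of all 32851 RefSeq windows of this length. GC boxes lie in the Adcy3 window (1) and the Adcy5 window (4) and in 32.7% of all windows. Over the windows nearest to the deposited starts of the 8 matched genes, 3 hold the core (Gnas, Adcy7 and Adcy9) and 5 hold a GC box. The nearest Adcy7 window lies 10589 bases and that of Adcy5 772 bases from the start of the deposited transcript, whereas those of Gnas, Adcy2, Adcy3, Adcy4 and Adcy9 start at the same base and that of Adcy1 lies 56 bases away. Of the 8 windows, 0 hold the full element TGACGTCA, which is in 1.55% of all windows, and 0 hold the kind of inverted repeat bound by FXR, AGGTCA and its reverse complement TGACCT with any 1 base between them, which is in 2 of the 32851 windows. G and C made up 54% to 78.8% of these 8 windows, against a median of 52.4% over all windows. Gnas has other annotated starts, whose windows are not shown and not among these 8. The window of the start at 174330006, that of a shorter transcript described below, has 80% G and C. It holds 2 GC boxes and the core once, 216 bases before that start. The window of the start at 174284320 holds 1 GC box and no core, and that of 174327749 overlaps the window shown.

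The counts of the 6 libraries summed to about 4534360 to 9947970 for OCA+VIP and 2839110 to 4574160 for DMSO+VIP. Of the counts above 0 and up to 30, 65.4% to 87.5% per library lay within 0.5 of a multiple of 3, where an even spread would give 50%, and the lowest share was that of OCA+VIP library 2, the deepest. A step of 6 counts was taken as the smallest unit of evidence, and 18 counts over the 3 libraries of a group (3 steps) as the limit under which a gene counts as not detected: 0.887 CPM (counts scaled to a library total of 1000000) over OCA+VIP and 1.61 CPM over DMSO+VIP, for counting error only. Stellate cell markers summed to 798 to 954 CPM in OCA+VIP libraries and 766 to 1049 CPM in DMSO+VIP libraries, 0 of the 14 were at 0 throughout, and of 13 tested 3 were higher and 3 lower. Over all tested genes, the test described below called 5.72% higher and 6.04% lower. Hepatocyte markers summed to 239 to 398 CPM in OCA+VIP libraries, against 71.4 to 76.9 CPM in DMSO+VIP libraries; all 9 tested of 12 passed the test as higher, and Cps1 and Tat were at 0. Smooth muscle and portal fibroblast markers summed to 11.6 to 14.9 CPM in OCA+VIP libraries and 32.2 to 60.4 CPM in DMSO+VIP libraries, with Thy1 and Pi16 at 0. The 1 tested of 7, Fbln2, was lower, and the sums rest largely on it. It had 9.59, 8.24 and 11.6 CPM in OCA+VIP libraries 1 to 3, against 55.2, 29.9 and 34.7 CPM in DMSO+VIP libraries 1 to 3. Macrophage markers (32.8 to 44.8 CPM with OCA+VIP, 15.3 to 47.3 CPM with DMSO+VIP; C1qa, C1qb, C1qc, Vsig4 and Timd4 at 0) and endothelial markers (9.37 to 20.7 and 5.76 to 9.84 CPM; Lyve1 at 0) were low, with 0 of 2 and 0 of 3 tested genes called. The 4 detected cholangiocyte markers summed to 17.3 to 21.0 CPM in OCA+VIP libraries and 6.16 to 14.9 CPM in DMSO+VIP libraries, without overlap, with Krt7 at 0 and 0 of 2 tested called. Lymphocyte markers (5.88 to 10.9 CPM with OCA+VIP, 0 to 1.31 CPM with DMSO+VIP; Ptprc, Cd3e, Ms4a1, Nkg7 and Klrb1c at 0) were also low, with the 1 tested called higher. The part of these other cells in the levels given below was not tested, and in such bulk RNA fewer cells of a type and less RNA per cell cannot be told apart.

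Of the 10 genes, 6 had enough counts to be tested and 1 of them, Adcy3, was lower with OCA (quasi-likelihood test of edgeR with a Benjamini-Hochberg adjusted p under 0.05). The same test called 11.8% of all 11286 tested genes, 6.04% as lower and 5.72% as higher. None of the 6 was called higher, with 0 also at an unadjusted p under 0.05 and 0 by DESeq2, whereas 3 (Adcy3, Adcy4 and Adcy9) had an unadjusted p under 0.05, all on the lower side; over all tested genes 26% had such a p, 13.1% on the lower side. The libraries of the groups did not overlap for 3 of the 6 genes, Adcy3 and Adcy4 being lower and Adcy5 higher with OCA; 30.6% of all tested genes were without overlap. The median log2 fold change was -0.49 over the 6 genes and 0.00 over all tested genes. Adcy1, Adcy2, Adcy7 and Adcy8 did not pass the filter on low counts and were described without a test.

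Gnas, the only one of the 10 that encodes a G protein, was abundant and did not pass the test. It had 765, 552 and 701 CPM in OCA+VIP libraries 1 to 3, against 667, 750 and 739 CPM in DMSO+VIP libraries 1 to 3. The groups overlapped, and the lowest and the highest value were both in the OCA+VIP group. The mean was 673 ± 109 CPM with OCA+VIP and 719 ± 45.05 CPM with DMSO+VIP (SD, n = 3 each), or -0.10 on the log2 scale with an SE of 0.14 (edgeR adjusted p = 0.71). Per kilobase of exon, the scale used below to compare genes, Gnas stood at 173 ± 28.2 CPM per kilobase with OCA+VIP and 185 ± 11.6 with DMSO+VIP, and ranked 421 among the 11286 tested genes by its mean over all libraries.

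The Gnas locus (chromosome 2, 174327768 to 174346742 for the deposited transcript, mm10) is complex, with alternative first exons that are imprinted in mouse, and the deposited count may hold reads of more than 1 of its transcripts. The deposited transcript is 3886 bases long. Its GENCODE counterpart has 13 exons that share 1786 bases with an annotated 1789-base transcript, a shorter form that starts at 174330006. The shared bases are 99.8% of that shorter transcript and 45.8% of the deposited exons. With the length of that shorter transcript the same counts would give 376 CPM per kilobase with OCA+VIP and 402 with DMSO+VIP. Of the annotated exon bases, 37.6% also lie in exons of Gm20721 on the opposite strand; whether counting used strand is not given in the sources used here, so reads of such overlapping genes may be mixed.

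**Figure D1:**
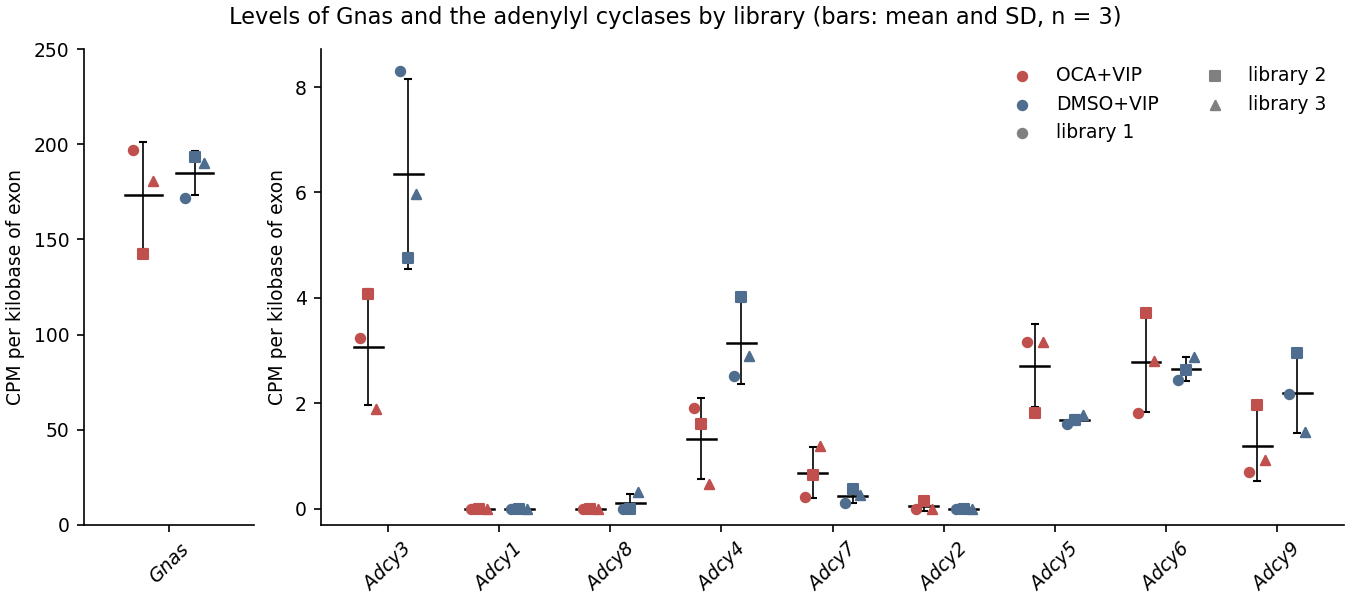
CPM per kilobase of exon (linear axes, with different ranges) for Gnas (left) and the 9 cyclases grouped by class (right). Each point is a library, OCA+VIP on the left of each pair, and black lines are the mean and SD over 3 libraries; the Adcy3 and Adcy4 points are lower and the Adcy5 points higher with OCA+VIP without overlap, while Adcy1, Adcy2 and Adcy8 sit at or near 0.

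Ranked by mean CPM per kilobase, the cyclases ran in the OCA+VIP group from Adcy3 (3.06 ± 1.10) through Adcy6 (2.78 ± 0.946), Adcy5 (2.72 ± 0.781), Adcy4 (1.33 ± 0.765) and Adcy9 (1.202 ± 0.671) to Adcy7 (0.686 ± 0.486; SD, n = 3). In the DMSO+VIP group the order was Adcy3 (6.34 ± 1.80), Adcy4 (3.15 ± 0.777), Adcy6 (2.65 ± 0.219), Adcy9 (2.19 ± 0.747), Adcy5 (1.69 ± 0.0883) and Adcy7 (0.249 ± 0.135; SD, n = 3). With OCA+VIP every neighbour in this order from Adcy3 to Adcy7 had libraries that overlapped, so no isoform led beyond the spread. With DMSO+VIP the libraries of Adcy3 lay above those of Adcy4 without overlap and those of Adcy5 above those of Adcy7, while Adcy4, Adcy6, Adcy9 and Adcy5 overlapped in turn. The first place of Adcy3 in the OCA+VIP group became second place without length scaling, and also when OCA+VIP library 1 or 2 was left out. The deposited exon lengths of Adcy5, Adcy7, Adcy8 and Adcy9 (5037, 6091, 5019 and 7827 bases) differed from those of the linked GENCODE transcripts (7008, 5198, 6990 and 4507 bases), and these other lengths changed the order. With them Adcy3 stayed first in both groups, but Adcy9 became the third with OCA+VIP (2.09 ± 1.17 CPM per kilobase) and the second with DMSO+VIP (3.81 ± 1.30; SD, n = 3), where its libraries then overlapped those of Adcy3. All of the tested cyclases were scarce: by mean CPM per kilobase they ranked between 8492 (Adcy3) and 10218 (Adcy9) of 11286 tested genes.

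Adcy3, of the calcium and calmodulin group and best known as the cyclase of olfactory cilia, was the member that fell. It had 15.2, 19.1 and 8.87 CPM in OCA+VIP libraries 1 to 3, against 39.0, 22.4 and 28.1 CPM in DMSO+VIP libraries 1 to 3. Every OCA+VIP library was below every DMSO+VIP library, with the nearest values in library 2 of each group. The means were 14.4 ± 5.19 CPM with OCA+VIP and 29.8 ± 8.46 CPM with DMSO+VIP (SD, n = 3), a 2.10-fold lower level (-1.07 on the log2 scale with an SE of 0.31, edgeR adjusted p = 0.024). These levels rest on 311 counts over the OCA+VIP group and 347 over the DMSO+VIP group. Leaving out OCA+VIP library 1 or 3, or DMSO+VIP library 1, ended the call (edgeR adjusted p = 0.0602, 0.131 and 0.158), with log2 fold changes of -1.14, -0.82 and -0.84. Exons of Cenpo, a centromere protein gene on the opposite strand, cover 1380 bases or 29.2% of the exon bases of the annotated Adcy3 transcript (chromosome 12, 4133397 to 4213524). Cenpo had 7.28, 10.4 and 5.17 CPM in OCA+VIP libraries 1 to 3, against 6.56, 0 and 3.35 CPM in DMSO+VIP libraries 1 to 3, so its groups overlapped and its mean was on the higher side with OCA, the opposite side from Adcy3 (1.15 on the log2 scale with an SE of 0.77, edgeR adjusted p = 0.36).

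The other genes of that group were not detected above the limit. Adcy1, a brain cyclase, had no count in any library, which allows up to 0.0725 CPM per kilobase over the OCA+VIP group and 0.132 over the DMSO+VIP group. Adcy8, also known from brain, had 0 counts in the OCA+VIP libraries and 6 counts in DMSO+VIP library 3, under the limit of 18 counts. No fold is given for either gene.

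**Figure D2:**
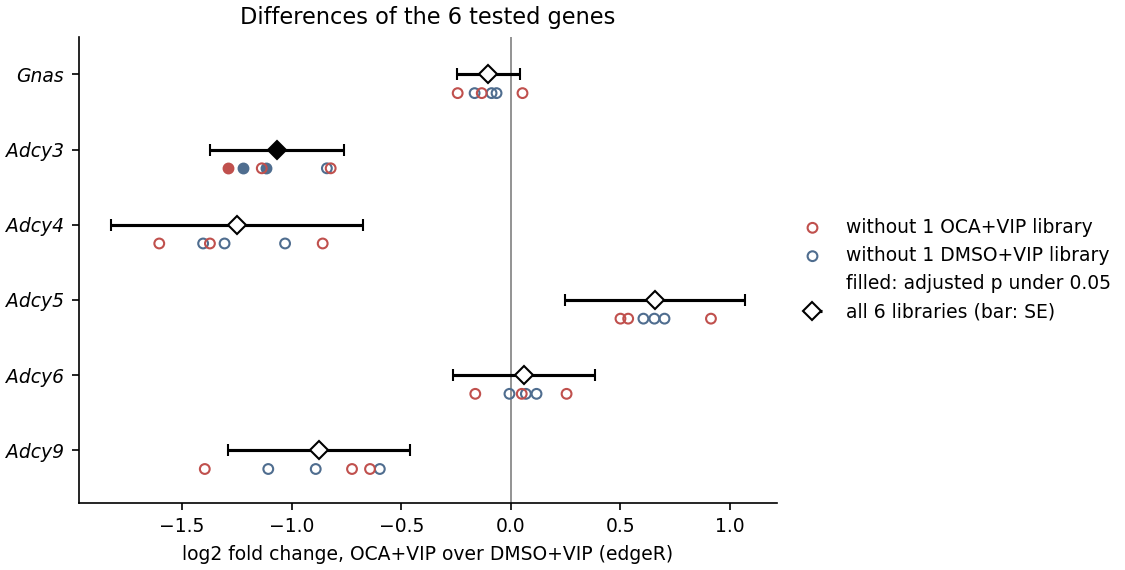
Log2 fold change of OCA+VIP over DMSO+VIP for the 6 tested genes (diamonds with SE bars, all 6 libraries) and the same value after leaving out 1 library (circles, coloured by the group of the library left out). Filled symbols passed an adjusted p of 0.05: of the 6 diamonds this is Adcy3 alone, at -1.07, and 3 of its 6 circles are open.

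In the group open to stimulation by beta-gamma dimers, Adcy4 (chromosome 14, 55769058 to 55784072) had the highest mean level per kilobase in both groups. It had 6.73, 5.63 and 1.64 CPM in OCA+VIP libraries 1 to 3, against 8.85, 14.1 and 10.2 CPM in DMSO+VIP libraries 1 to 3. All OCA+VIP libraries were below all DMSO+VIP libraries, yet the difference did not pass (-1.25 on the log2 scale with an SE of 0.58, edgeR adjusted p = 0.17), and its counts were few, 96 over the OCA+VIP group and 118.5 over the DMSO+VIP group. Adcy7 (chromosome 8, 88272403 to 88329962), the cyclase typical of blood and immune cells, had 1.32, 3.97 and 7.24 CPM in OCA+VIP libraries 1 to 3, against 0.656, 2.29 and 1.61 CPM in DMSO+VIP libraries 1 to 3. The groups overlapped, and the 15.5 counts of the DMSO+VIP group lay under the limit of 18, so no fold is given. Where another filter or a left-out library let it be tested, Adcy7 did not pass (edgeR adjusted p from 0.298 to 0.554). Among markers of blood cells, the pan-leukocyte gene Ptprc was at 0 in all 6 libraries. The B cell gene Cd79a had 6.06, 3.67 and 8.35 CPM in OCA+VIP libraries 1 to 3, against 0 in all DMSO+VIP libraries (edgeR adjusted p = 0.0025), and the macrophage gene Cd68 averaged 30.6 ± 5.92 CPM with OCA+VIP and 20.5 ± 5.61 CPM with DMSO+VIP (SD, n = 3; edgeR adjusted p = 0.19). The other tested macrophage gene, Csf1r, averaged 1.95 ± 0.968 CPM with OCA+VIP and 3.87 ± 4.61 CPM with DMSO+VIP (SD, n = 3; edgeR adjusted p = 0.56). The means of Cd79a and Cd68 were on the same side as that of Adcy7, and that of Csf1r was on the other side. The part of such cells in the level of Adcy7 was not tested. Adcy2 had 6 counts in OCA+VIP library 2 and 0 in the other libraries. Exons of the antisense gene Gm35161 cover 4.49% of its annotated exon bases.

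Both genes of the group inhibited by calcium and by Gi were measured. Adcy5 (chromosome 16, 35155636 to 35304549), a main cyclase of heart and striatum, had 16.0, 9.15 and 15.9 CPM in OCA+VIP libraries 1 to 3, against 8.09, 8.45 and 8.97 CPM in DMSO+VIP libraries 1 to 3. The groups did not overlap, but OCA+VIP library 2 was close to the DMSO+VIP libraries and the difference did not pass (0.66 on the log2 scale with an SE of 0.41, edgeR adjusted p = 0.33). Adcy6 (chromosome 15, 98589986 to 98607633), the close relative of Adcy5 that is widely expressed, had 10.9, 22.3 and 16.9 CPM in OCA+VIP libraries 1 to 3, against 14.6, 15.9 and 17.3 CPM in DMSO+VIP libraries 1 to 3. The DMSO+VIP libraries lay inside the range of the OCA+VIP libraries (0.06 on the log2 scale with an SE of 0.32, edgeR adjusted p = 0.93). Exons of the antisense gene Gm29331 cover 10.0% of the annotated exon bases of Adcy6.

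Adcy9 (chromosome 16, 4284886 to 4420498), the remaining cyclase, had 5.51, 15.4 and 7.32 CPM in OCA+VIP libraries 1 to 3, against 17.1, 23.1 and 11.4 CPM in DMSO+VIP libraries 1 to 3. Only OCA+VIP library 2 reached into the DMSO+VIP range, above DMSO+VIP library 3. The difference did not pass (-0.88 on the log2 scale with an SE of 0.41, edgeR adjusted p = 0.18), and in the fits with 1 library left out its adjusted p ran from 0.0543 to 0.465. Of the tested genes, OCA+VIP library 2, the deepest and least stepped, was the lowest of its group for Gnas and Adcy5. It was the highest for Adcy3, Adcy6 and Adcy9, and in the middle for Adcy4.

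Summed over the 9 cyclases, the level was 11.1, 14.0 and 10.5 CPM per kilobase in OCA+VIP libraries 1 to 3, against 17.2, 16.4 and 15.6 CPM per kilobase in DMSO+VIP libraries 1 to 3. The summed level was thus lower in every OCA+VIP library. Without Adcy3 the sum over the other 8 was 7.84, 9.89 and 8.57 CPM per kilobase in the OCA+VIP libraries and 8.86, 11.7 and 9.61 CPM per kilobase in the DMSO+VIP libraries, and the groups overlapped. By class, the sum of Adcy5 and Adcy6 was 4.99, 5.53 and 5.98 CPM per kilobase in OCA+VIP libraries 1 to 3, against 4.05, 4.32 and 4.66 in DMSO+VIP libraries 1 to 3, higher in every OCA+VIP library. With the GENCODE lengths the groups overlapped for this sum (4.09, 4.99 and 5.07 in OCA+VIP libraries, 3.58, 3.83 and 4.14 in DMSO+VIP libraries). The sum of Adcy2, Adcy4 and Adcy7 was 2.14, 2.40 and 1.66 CPM per kilobase in OCA+VIP libraries and 2.64, 4.40 and 3.17 in DMSO+VIP libraries, lower in every OCA+VIP library. The genes of a class did not move together. Adcy4 averaged 1.33 CPM per kilobase with OCA+VIP and 3.15 with DMSO+VIP, whereas Adcy7, under the limit with DMSO+VIP, averaged 0.686 and 0.249. Adcy5 averaged 2.72 with OCA+VIP and 1.69 with DMSO+VIP, and Adcy6 2.78 and 2.65. These sums and the shares below are descriptions without a test.

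As shares of the summed level, Adcy3 made up 29.2%, 29.2% and 18.05% in OCA+VIP libraries 1 to 3, against 48.4%, 29.0% and 38.4% in DMSO+VIP libraries 1 to 3, with overlap between groups. Adcy5 and Adcy6 together made up 45.1%, 39.6% and 57.2% in OCA+VIP libraries, against 23.6%, 26.3% and 29.9% in DMSO+VIP libraries, and these groups did not overlap, nor did they with the GENCODE lengths (33.4% to 48.6% with OCA+VIP, 19.6% to 25.8% with DMSO+VIP). The share of Adcy5 alone was 24.0 ± 9.54% with OCA+VIP and 10.3 ± 1.04% with DMSO+VIP (SD, n = 3), also without overlap. Adcy3 stood at 1.02, 2.24 and 0.596 times the level of Adcy5 per kilobase in OCA+VIP libraries 1 to 3, against 5.17, 2.83 and 3.36 times in DMSO+VIP libraries 1 to 3. Gnas stood at 15.1 ± 4.25 times the summed cyclases with OCA+VIP and 11.3 ± 1.16 times with DMSO+VIP (SD, n = 3, per kilobase of the deposited transcripts), with overlap.

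**Figure D3:**
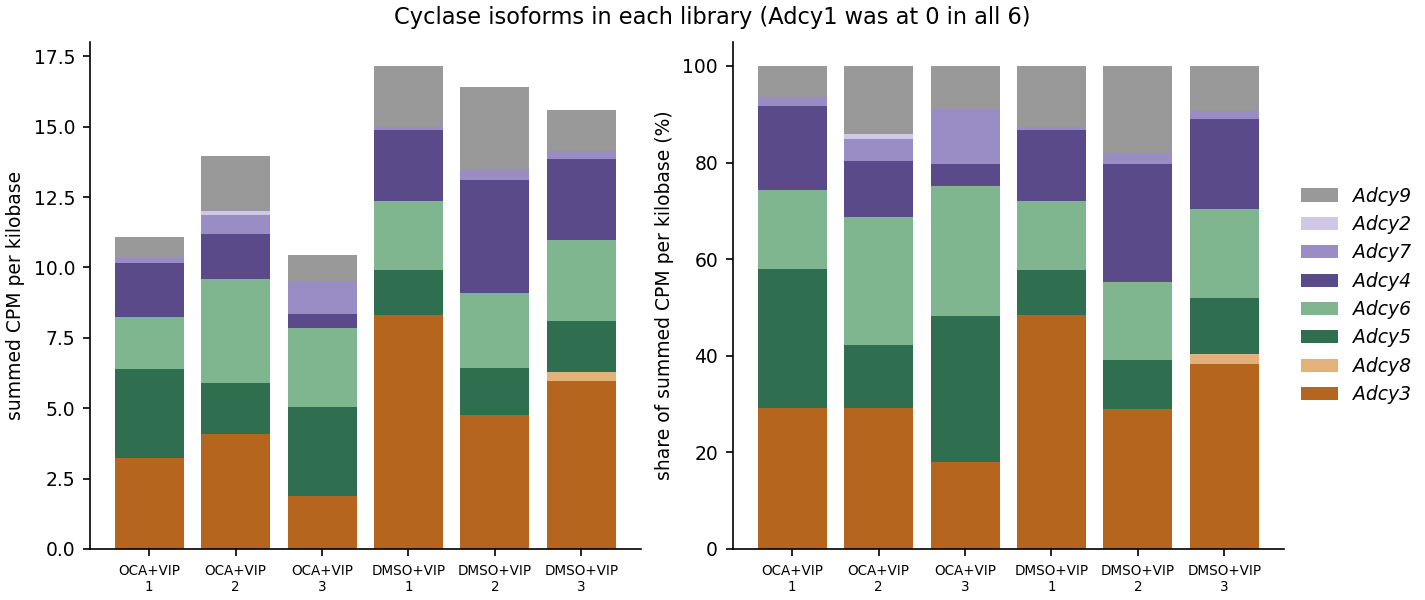
Stacked levels of the cyclase isoforms in each library, as summed CPM per kilobase (left) and as a share of that sum in percent (right), with the OCA+VIP libraries first. The green segments, Adcy5 and Adcy6, take 39.6% to 57.2% in OCA+VIP libraries and 23.6% to 29.9% in DMSO+VIP libraries, and the brown Adcy3 segment is shorter on the left panel in every OCA+VIP library.

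The genes whose pattern over the 6 libraries was most like that of Adcy3, among 10149 with a mean of at least 5 CPM, were Fn1, which encodes fibronectin, Dagla, a diacylglycerol lipase gene, and Lysmd4. Their centred log2 CPM differed from that of Adcy3 by a root mean square of 0.117, 0.158 and 0.168, against a median of 0.700 over all genes compared. Like Adcy3, all 3 were lower with OCA (-1.13, -1.22 and -1.05 on the log2 scale). For Gnas the nearest were the chaperonin gene Cct2, the cathepsin gene Ctsl and Ran, a nuclear transport GTPase gene (0.0328, 0.0344 and 0.0370, median 0.345). The genes named were picked for the smallest differences, so lying under the median follows from the choice.

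Around these genes, 1 of the 19 other G protein subunit genes tested passed, against 11.8% of all tested genes. Of 12 other alpha subunit genes, 9 were tested and 0 passed by edgeR or by DESeq2, with 1 at an unadjusted p under 0.05 (Gna12, log2 fold change -0.43, edgeR adjusted p = 0.14) and the median of the list was -0.13. Gna12 was the 1 alpha subunit gene called, as lower, when OCA+VIP library 2 was left out (edgeR adjusted p = 0.0248). The inhibitory subunit gene Gnai3 averaged 459 ± 5.78 CPM with OCA+VIP and 429 ± 32.9 CPM with DMSO+VIP (SD, n = 3; log2 fold change 0.08, SE 0.12). Those of Gnao1 and Gnaq were -1.36 (SE 0.76) and -0.29 (SE 0.19), and neither passed. Of 10 tested beta and gamma genes, Gng12 fell, to 246 ± 4.27 CPM with OCA+VIP against 365 ± 35.7 CPM with DMSO+VIP (SD, n = 3; -0.59 on the log2 scale with an SE of 0.12, edgeR adjusted p = 0.0025), and its call held in all 6 fits that left out a library. Gng10, Gng5 and Gnb1 did not pass (-0.46, -0.29 and -0.21), and the median was -0.23.

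Of 19 tested regulators of Gs and the cyclases, 3 fell, 1 rose and 15 did not pass, with a median log2 fold change of 0.04. Over all tested genes 6.04% were called lower and 5.72% higher. Akap12, a scaffold that holds protein kinase A near receptors, was 244 ± 51.7 CPM with OCA+VIP and 506 ± 18.4 CPM with DMSO+VIP (SD, n = 3; -1.07 on the log2 scale with an SE of 0.13, edgeR adjusted p = 1.1e-05). Rgs2, which encodes an RGS protein that can also inhibit cyclases, and Ppp3ca, a catalytic subunit gene of calcineurin, were lower (-1.54 and -0.61, edgeR adjusted p = 0.036 and 0.035), and the protein kinase C gene Prkcd higher (0.62, edgeR adjusted p = 0.026). The calls of Rgs2 and Ppp3ca held with OCA+VIP library 2 left out and ended with each of the other 5 left out, with edgeR adjusted p from 0.0523 to 0.139 and from 0.0509 to 0.150. That of Prkcd held without OCA+VIP library 2 or DMSO+VIP library 3 and ended in the other 4 such fits (edgeR adjusted p from 0.0791 to 0.0953). Akap12 was the 1 gene called lower in each of the 5 fits in which Rgs2 and Ppp3ca lost their calls. Without OCA+VIP library 2 the genes called higher were 2, Prkcd and the calmodulin gene Calm2 (edgeR adjusted p = 0.0268 for Calm2 in that fit). With all libraries Calm2 did not pass (edgeR adjusted p = 0.32). The lower calls were also 2 in place of 3 with column totals as library sizes, where Ppp3ca did not pass (edgeR adjusted p = 0.059), with a replicate block, where Rgs2 did not (edgeR adjusted p = 0.062), and with counts divided by 6, where Rgs2 was not tested.

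Upstream and downstream of the cyclases, 2 of 8 tested receptor genes, 1 of 6 effector genes and 7 of 11 phosphodiesterase genes passed. Over all tested genes 11.8% passed, 6.04% as lower and 5.72% as higher. Of 31 genes for Gs-coupled receptors, 16 had no counts, among them Gpbar1, the bile acid receptor TGR5, and 8 were tested. Of the genes for the main VIP receptors, Vipr2 was at 0 in all libraries, and Vipr1 was 52.1 ± 2.94 CPM with OCA+VIP and 31.9 ± 6.00 CPM with DMSO+VIP (SD, n = 3; 0.68 on the log2 scale with an SE of 0.20, edgeR adjusted p = 0.027), and its call held only without DMSO+VIP library 1 (edgeR adjusted p from 0.0615 to 0.1002 without any other library). Ptger2, a prostaglandin E2 receptor gene, was 15.6 ± 7.20 CPM with OCA+VIP and 51.1 ± 11.2 CPM with DMSO+VIP (SD, n = 3; -1.71 on the log2 scale with an SE of 0.27, edgeR adjusted p = 1.6e-04). Pth1r and Adcyap1r1 did not pass (-0.85 and -0.96), and the median of the receptors was -0.47. Gnas stood at 16.4 ± 3.42 times Vipr1 with OCA+VIP and 29.2 ± 6.55 times with DMSO+VIP per kilobase (SD, n = 3), without overlap of libraries. Of 6 tested cAMP effector genes 1 fell, the regulatory subunit gene Prkar2b (-1.31, SE 0.29, edgeR adjusted p = 0.0038), and the median was -0.08. Prkaca, Prkar1a and Prkar1b did not pass (-0.15, -0.09 and 0.76). Of 11 tested genes for phosphodiesterases that degrade cAMP, 6 fell and 1 rose, with a median of -0.53. The riser, Pde8a (0.74, edgeR adjusted p = 0.020), was named after its value was seen, and 0 were called higher when OCA+VIP library 2 or 3, or DMSO+VIP library 1 or 2, was left out. Pde4d, Pde3a, Pde10a and Pde7b fell by 2.54, 1.46, 1.65 and 1.16 on the log2 scale, and each call held in all 6 fits that left out a library. The other falls, Pde1a and Pde4b (-2.38 and -0.53, edgeR adjusted p = 0.018 and 0.016), also named after their values were seen, were less stable. Pde1a lost its call in 5 of those fits, all but that without OCA+VIP library 2 (edgeR adjusted p from 0.0508 to 0.0737), and Pde4b in 4, without OCA+VIP library 1 or 3 or DMSO+VIP library 1 or 2 (0.0605 to 0.119). The total called was thus 7 with all libraries and 4 without OCA+VIP library 3 or DMSO+VIP library 1 or 2.

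**Figure D4:**
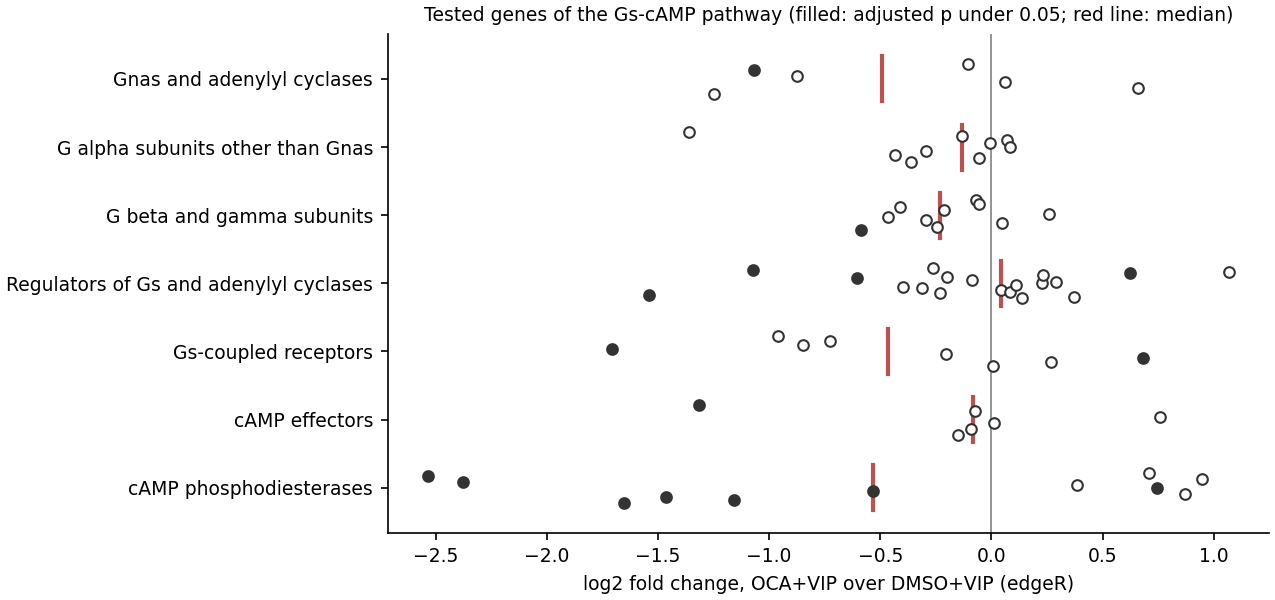
Log2 fold change of OCA+VIP over DMSO+VIP for each tested gene (points, filled where the adjusted p was under 0.05) of 7 lists, with the list's median as a red line. Gnas and the cyclases hold 1 filled point of 6, and the phosphodiesterases 7 of 11 with all libraries, or 4 of 11 in 3 of the 6 fits with a library left out. Over all tested genes 11.8% passed.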

How the data were processed

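The authors deposited 1 table of expected counts, over the exons of 1 RefSeq transcript per gene and not adjusted for library size, with an exon length for each gene. The submitters' processing notes name mm10, STAR, HOMER and DESeq2, with no role or version; use of strand and removal of duplicates are not given in the sources used here. Columns were assigned to groups by name and are numbered as in the table, as the sample titles carry letters that could not be tied to these numbers.

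Counts were rounded to integers and fitted over all genes with edgeR 4.0.16 in R 4.3.3: TMM, filterByExpr (minimum count 10, minimum total 15), a two-sided quasi-likelihood F test and Benjamini-Hochberg adjustment over 11286 genes. The design leaves 4 residual degrees of freedom per gene, and the test uses more, as edgeR moderates the dispersion across genes. CPM are unrounded counts over column totals, divided by the deposited length for levels per kilobase. The SE is the absolute log2 fold change over the square root of F. Likeness used TMM-normalised log2 CPM (prior count 2). Overlaps came from GENCODE (GRCm38) transcripts linked to the deposited RefSeq IDs. The fit was tested on simulated data. Alternatives used DESeq2 1.42.0 and limma 3.58.1; tables and figures used Python 3.11.15, pandas 2.3.3, numpy 2.4.6 and matplotlib 3.10.9.

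The genes, the 6 pathway lists and the 7 marker lists (1 gene of which is not reported here) were chosen with earlier results of these data known. The text names all 10 genes, overlapping genes, the 3 nearest patterns to Gnas and to Adcy3, and the 4 genes of smallest p per pathway list with at least 1 CPM. Gpbar1, Cd79a, Cd68, Csf1r, Fbln2, Calm2, Pde1a, Pde4b, Pde8a and genes listed at 0 were named after their values were seen.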

Additional observations from a re-analysis of the deposited data

How the results depend on the processing

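Over the 6 tested genes, every alternative scaling, filter and tool that gave a value kept the direction and the side of the threshold; the exceptions came from leaving out libraries. Leaving out each library in turn gave 0 to 1 called genes of the 10, against 1 with all libraries, and 737 to 1478 of all genes, against 1328. The lowest counts were without OCA+VIP library 1 (737), OCA+VIP library 3 (751) and DMSO+VIP library 1 (877). At a threshold of 0.01, 0 of the 10 genes and 648 of all genes were called. With 1 library left out the log2 fold change of Gnas ran from -0.24 to 0.054, above 0 without OCA+VIP library 2, and that of Adcy6 from -0.16 to 0.26, below 0 without OCA+VIP library 2 (-0.16) and DMSO+VIP library 1 (-0.01); none of these values passed the test in any fit, and the cause was not tested. The rank of Adcy3 among the cyclases in the OCA+VIP group was 2 without length scaling and ran from 1 to 2 with 1 library left out; it was 1, with Adcy9 ranked higher than before, with the lengths of the linked annotated transcripts, an alternative chosen after the data were seen, as was the shorter Gnas length, which gave 376 and 402 CPM per kilobase against 173 and 185. With the column number as a replicate block, 1 of the 10 genes (Adcy3, log2 fold change -1.09, edgeR adjusted p = 0.032) and 1118 of all genes were called. Deviations of same-numbered libraries from their group means had correlations of -0.0353, -0.0501 and 0.0303. Such values cannot show whether these libraries share a mouse or culture, which the labels do not give. Differences in Adcy1, Adcy2, Adcy7 and Adcy8 were not detectable at these counts; absence of expression and low depth cannot be told apart for genes at 0. Of the pathway lists, the regulators and the phosphodiesterases lost the most calls when a library was left out, as given beside them.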
